A study of Mus musculus with 6 samples.

Results

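The genes described here are 34 genes that mark macrophages and the products macrophages are known for, out of 43346 genes listed for gastrocnemius muscle of the mouse. They were chosen by name: 18 pan-macrophage genes, 6 genes of tissue-resident macrophages, 3 genes of monocytes, 4 genes of major histocompatibility complex (MHC) class II and the 3 genes of complement C1q. All 34 were found, 33 under their current names and Adgre1, which encodes F4/80, under its older symbol Emr1 through its gene identifier.

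Messenger RNA of the gastrocnemius, a calf muscle, was sequenced from 6 male mice aged 6 months. Every mouse carried Vdr fl/fl, a vitamin D receptor gene (Vdr) with loxP sites around its exon 3, together with the actin iCre transgene Tg(ACTA1-cre/Esr1*)2Kesr, a tamoxifen-dependent Cre recombinase under a skeletal muscle actin promoter. The 3 mice called knockout by their labels received tamoxifen at 100 mg/kg in corn oil with 10% ethanol, injected into the peritoneum on 5 days, and the 3 vehicle mice received the corn oil and ethanol alone. All 6 ate a chow with vitamin D3 at 3.4 IU/g and 0.81% of calcium. The muscles were taken after tests of glucose handling and strength made 10 days after dosing ended. Tamoxifen, active Cre and the deletion were given or withheld together, so their effects cannot be told apart between these groups, and the tamoxifen-treated Vdr fl/fl mice without Cre are not analysed here. The transgene acts in muscle fibres, whereas the genes described here are known from cells that lie between the fibres.

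Macrophages take up debris and pathogens, and in skeletal muscle they lie mainly in the connective tissue around the fibres. Their growth and survival depend on signals through the CSF1 receptor, and they are a main source of C1q, the recognition subunit that starts the classical complement pathway. MHC class II molecules are pairs of an alpha and a beta chain that present peptides to helper T cells. The invariant chain Cd74 guides them to the compartment in which the peptide is loaded. In a whole muscle, fewer cells of a type and less RNA per cell cannot be told apart.

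The libraries held 30486874 to 39909535 counted reads, and 3 reads correspond to 0.0752 to 0.0984 CPM, the usual depth-scaled count. Levels are given as CPM scaled by the trimmed mean of M-values, in the order of replicates 1, 2 and 3, and a replicate number is only a name. Muscle fibre markers were abundant in every library, at 108183 to 227204 CPM summed over 10 genes, with the lowest sum in knockout replicate 2. That library also had the highest sum of 10 slow-fibre markers, 32826 CPM against 1233 to 10352 CPM in the other libraries. Vdr itself was at 1.51, 0.781 and 1.07 CPM in the knockout libraries and 1.42, 1.32 and 1.59 CPM in the vehicle libraries, so the groups overlapped (log2 fold change -0.37, SE 0.37, edgeR adjusted p = 0.848). Reads were counted over the whole gene, which does not single out the floxed exon.

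Macrophage transcripts were present in all 6 libraries, at low levels for most genes. Compared per transcript length, in the deposited FPKM, which divides by gene length and library depth, the mean over the 6 libraries was highest for Lyz2, which encodes lysozyme, at 27.9 FPKM. Cd74 followed at 22.4 FPKM, H2-Eb1 at 10.5 FPKM, C1qb at 9.65 FPKM and H2-Aa at 8.56 FPKM. The C1q and class II genes thus stood among the highest of the set in level, with C1qa at 7.28 FPKM and H2-Ab1 at 7.05 FPKM. For 12 genes the mean was below 1 FPKM, down to 0.0262 FPKM for Trem2, a lipid-sensing receptor of macrophages.

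**Figure D1:**
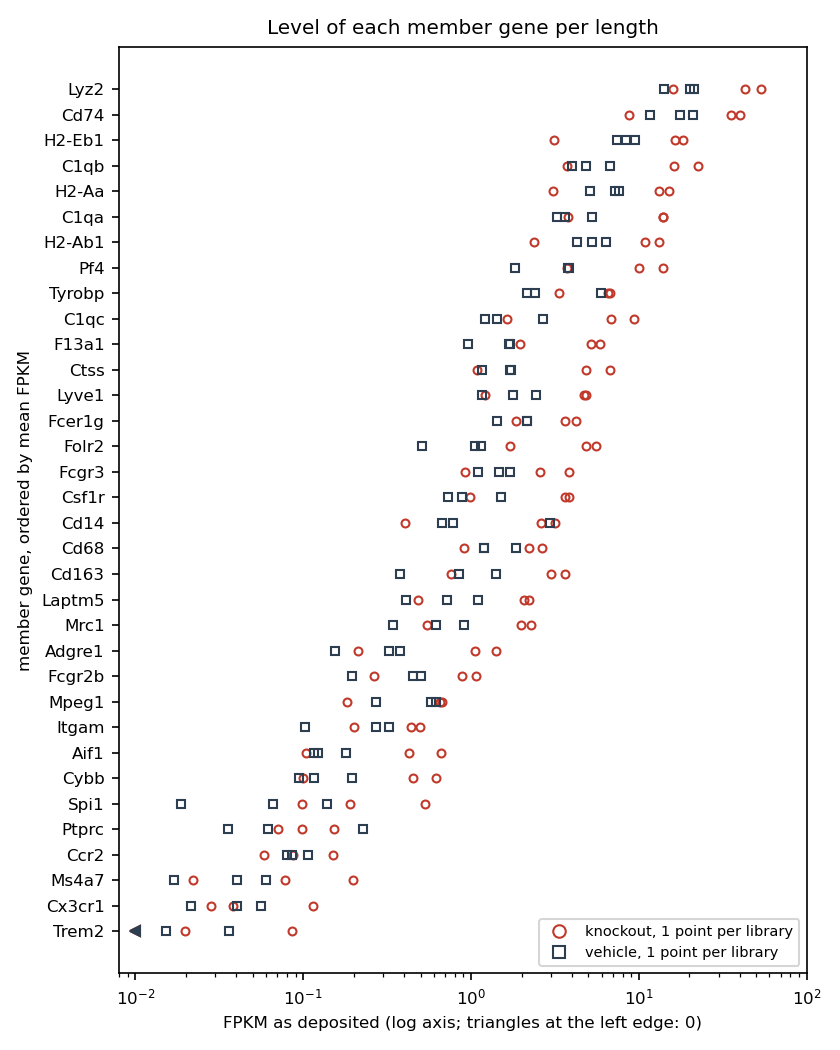
Deposited FPKM (log axis) of the 34 genes, ordered by their mean, with 1 point for each of 3 knockout libraries (circles) and 3 vehicle libraries (squares). The levels span from 0.0262 FPKM on average for Trem2 to 27.9 FPKM for Lyz2, and for 28 genes the circles of knockout replicates 2 and 3 lie to the right of all squares. The circle of knockout replicate 1 lies within the range of the squares for 19 genes and to their left for 12.

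Most of the genes were higher on average in the knockout libraries, but unevenly: knockout replicates 2 and 3 were high and knockout replicate 1 was, for most genes, at the level of the vehicle libraries or below. Mean CPM was higher in the knockout group for 32 of 34 genes. The median difference in log2 CPM was 0.76 over the 34 genes, against 0.01 over all genes tested. Of the 34, 30 passed the filter on low counts and were tested, and 28 of these 30 had a positive log2 fold change, where 52.9% of all 15583 genes tested had one. Spi1, which encodes the macrophage transcription factor PU.1, passed with 2 knockout libraries and 1 vehicle library above the filter level.

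No gene of the 34 passed an adjusted p of 0.05 in edgeR's quasi-likelihood test, and neither did any of the 15583 genes tested (0%). At an unadjusted p under 0.05 there were 13 of the 34, all higher in the knockout group. At this threshold 4.02% of all genes tested were higher and 3.42% lower, 7.44% in all. DESeq2, run on the same genes, called Folr2 and F13a1 higher at adjusted p = 0.0032 and 0.0133, and it called 0.321% of genes higher (0.699% in either direction). Without the filter on low counts edgeR called Folr2, at adjusted p = 0.0371, and 0.122% of genes. The count of 13 at an unadjusted p under 0.05 was 6 with limma-voom (7.59% of all genes) and 6 with limma on log2 of FPKM plus 0.1 (6.81%) or plus 1 (6.67%). The log2 fold change was at least 1 for 13 genes, a size reached upward by 3.43% of all genes tested.

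The spread inside the knockout group was wide for nearly all of these genes. Knockout replicates 2 and 3 were the 2 highest libraries for 26 of the 34, a pattern found in 13.4% of all genes tested. Knockout replicate 1 was the lowest of the 6 libraries for 13 of the 34, against 13.2% of all genes tested. Summed over the 34 genes, the level was 111, 358 and 345 CPM in the knockout libraries and 179, 160 and 106 CPM in the vehicle libraries. The count of genes at an unadjusted p under 0.05 moved with single libraries: it was 24 without knockout replicate 1 (12.1% of all genes in that fit, in both directions), 4 without knockout replicate 2 (4.63%), 3 without knockout replicate 3 (6%), 14 without vehicle replicate 1 (9.31%), 7 without vehicle replicate 2 (4.67%) and 3 without vehicle replicate 3 (3.69%).

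**Figure D2:**
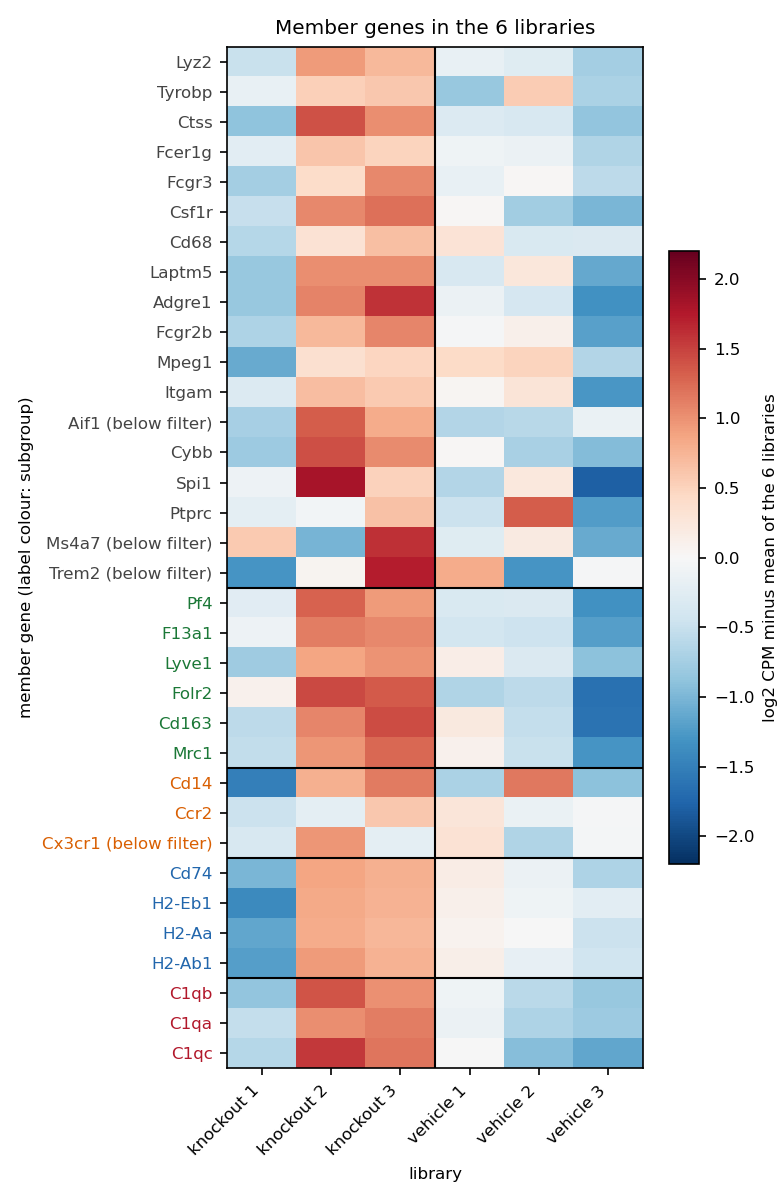
Log2 CPM of each of the 34 genes in each of the 6 libraries, minus the gene's mean over the libraries (colour), with the 5 subgroups separated by lines. Knockout replicates 2 and 3 are above the mean for most genes, knockout replicate 1 is below it for most, by more than 1 log2 unit for Cd14, Trem2, Mpeg1 and the 4 class II genes.

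Among the 18 pan-macrophage genes, 15 were tested, and 13 of these had a positive estimate, 5 of them at an unadjusted p under 0.05. Over all genes tested, 52.9% had a positive estimate and 4.02% were higher at that threshold. The median log2 fold change of the 15 was 0.82, against 0.02 for all genes tested. Csf1r, the receptor for the macrophage growth factors CSF1 and IL-34, was at 5.29, 15.7 and 17.5 CPM in the knockout libraries and 7.65, 4.38 and 3.70 CPM in the vehicle libraries. Knockout replicates 2 and 3 were above every vehicle library, while knockout replicate 1 lay inside the vehicle range. The log2 fold change was 1.29 (SE 0.45, edgeR adjusted p = 0.634). In the reference annotation an exon of Csf1r overlaps Hmgxb3 on the opposite strand.

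Lyz2 was at 22.2, 59.9 and 51.1 CPM in the knockout libraries and at 27.9, 25.9 and 18.5 CPM with vehicle. Here too knockout replicate 1 lay between vehicle libraries, and the log2 fold change of 0.88 (SE 0.34) had an edgeR adjusted p of 0.645. Lyz2 has a close copy, Lyz1, between which reads may have been split, and Lyz1 had a log2 fold change of 0.55. Adgre1, the F4/80 gene used to stain mouse macrophages, was at 0.756, 3.04 and 4.30 CPM against 1.27, 1.07 and 0.522 CPM (log2 fold change 1.51, SE 0.60, edgeR adjusted p = 0.645). Its knockout libraries ran from inside the vehicle range to more than any vehicle library.

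Ctss encodes cathepsin S, a protease that trims the invariant chain from class II molecules. Its levels were 1.63, 8.07 and 6.20 CPM in the knockout libraries and 2.45, 2.36 and 1.64 CPM in the vehicle libraries. Cybb, the membrane subunit of the phagocyte oxidase, was at 0.640, 3.18 and 2.46 CPM against 1.18, 0.685 and 0.574 CPM. Both genes were highest in knockout replicate 2, and the groups overlapped through knockout replicate 1. The log2 fold changes were 1.30 for Ctss (SE 0.51) and 1.37 for Cybb (SE 0.57), with edgeR adjusted p of 0.645 and 0.651.

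A pair of pan-macrophage genes had negative estimates. Ptprc, the pan-leukocyte gene of CD45, was at 1.42, 1.59 and 2.64 CPM in the knockout libraries and 1.18, 4.25 and 0.678 CPM in the vehicle libraries. Vehicle replicate 2 was the highest of the 6 and vehicle replicate 3 the lowest, and the log2 fold change of -0.11 (SE 0.62) turned to 1.02 without vehicle replicate 2. Mpeg1, which encodes the pore-forming protein perforin-2, was at 0.872, 2.49 and 2.72 CPM against 2.601, 2.74 and 1.23 CPM, with vehicle replicates 1 and 2 level with knockout replicates 2 and 3. Its log2 fold change was also -0.11 (SE 0.47) and was 0.25 without knockout replicate 1.

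The other 8 pan-macrophage genes tested (Cd68, Itgam, Laptm5, Tyrobp, Fcer1g, Fcgr3, Fcgr2b and Spi1) had log2 fold changes of 0.31 to 1.70 with SEs of 0.34 to 0.79. Their edgeR adjusted p-values were 0.680 to 0.880. Aif1, which encodes the actin-bundling protein IBA1, had too few reads for the test: 6, 31 and 23 in the knockout libraries and 6, 7 and 11 in the vehicle libraries. Trem2 had 0, 3 and 15 reads against 6, 0 and 3, and Ms4a7 had 13, 3 and 31 reads against 6, 10 and 3. For Trem2, 5 of the 6 libraries held 6 reads or fewer, so a difference was not detectable at this depth.

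The 6 genes of tissue-resident macrophages all had a positive estimate, 5 at an unadjusted p under 0.05, where 4.02% of all genes tested were higher. Their median log2 fold change, 1.38, was the highest of the 5 subgroups. That order rested on vehicle replicate 3: without it the median difference in log2 CPM was 0.89 for the resident genes and 0.94 for the C1q genes, against 1.30 and 1.08 with all libraries. All 3 genes whose knockout and vehicle libraries did not overlap in scaled CPM (Folr2, F13a1 and Pf4) were among them. In the deposited FPKM, which lacks that scaling, 2 of them did not overlap (Folr2 and F13a1), since Pf4 was at 3.75 FPKM in knockout replicate 1 and at 3.76 and 3.84 FPKM in vehicle replicates 1 and 2. That count of 3 of the 34 compares with 5.83% of all genes tested without overlap in this direction. None of the 34 had its groups apart in the lower direction, where the share of all genes was 6.48%.

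Folr2, a folate receptor of resident macrophages (ENSMUSG00000032725, chr7:101839990-101845331 in mm10), was at 2.04, 5.30 and 4.91 CPM in the knockout libraries. With vehicle it was at 1.18, 1.26 and 0.574 CPM, so that every knockout library was above every vehicle library, knockout replicate 1 included. The log2 fold change was 2.02 (SE 0.45, edgeR adjusted p = 0.431) and stayed between 1.74 and 2.34 when single libraries were left out. That adjusted p was the smallest of the 34 genes. In edgeR it was 0.0721 without knockout replicate 1 and 0.255 to 0.991 without each of the other libraries.

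F13a1, the catalytic subunit of the cross-linking factor XIII (ENSMUSG00000039109, chr13:36867178-37050244), was at 8.49, 20.2 and 19.2 CPM with knockout and 6.94, 6.71 and 3.94 CPM with vehicle. Pf4, a chemokine of platelets and resident macrophages (ENSMUSG00000029373, chr5:90772435-90773381), was at 2.41, 7.21 and 5.56 CPM against 2.29, 2.30 and 1.12 CPM. In scaled CPM the lowest knockout library of both genes, replicate 1, was just above the highest vehicle library. The log2 fold change was 1.45 for F13a1 (SE 0.35, edgeR adjusted p = 0.526) and 1.41 for Pf4 (SE 0.44, edgeR adjusted p = 0.611). For F13a1 the edgeR adjusted p was 0.0600 without knockout replicate 1 and 0.264 to 0.991 without each of the other libraries. Exons of Folr2 and F13a1 overlap antisense gene models (Gm10602 and Gm30489), as do exons of Fcgr2b and Cx3cr1 (Gm38204 and Gm33858). On the same strand, exons of Itgam and Cd74 overlap Gm49368 and Mir5107.

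Platelets carry Pf4 as well, and 6 platelet markers summed to 1.86, 4.77 and 2.94 CPM in the knockout libraries and 3.19, 3.78 and 2.30 CPM in the vehicle libraries. That sum overlapped between the groups and was highest in knockout replicate 2, as Pf4 was. Its part in the Pf4 difference was not tested. The remaining resident genes were those of the mannose receptor (Mrc1), the scavenger receptor CD163 (Cd163) and the hyaluronan receptor LYVE1 (Lyve1), with log2 fold changes of 0.85 to 1.35 and edgeR adjusted p-values of 0.645 to 0.708. Lyve1 also marks lymphatic vessels, and 6 lymphatic endothelial markers summed to 17.6 to 27.6 CPM in the knockout libraries and 21.7 to 25.9 CPM in the vehicle libraries.

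Each subgroup was also set against the pan-macrophage genes of the same library. The mean of those genes counts each gene equally, those with few reads and the pan-leukocyte gene Ptprc included. Whether such a ratio removes the number of macrophages in a library was not tested. Relative to the mean of the pan-macrophage genes, the resident genes were at 0.19, 0.43 and 0.23 log2 units in the knockout libraries and -0.02, -0.37 and -0.46 in the vehicle libraries, without overlap. By deposited FPKM, Folr2 was 0.108, 0.104 and 0.113 times the level of Lyz2 in the knockout libraries. With vehicle the ratio was 0.0495, 0.0571 and 0.0364, and knockout replicate 1 stood with its own group in this ratio. Cd163, another resident gene, overlapped in this ratio, at 0.0474, 0.0561 and 0.0844 times Lyz2 with knockout and 0.0660, 0.0421 and 0.0270 times with vehicle. With 3 mice against 3, these ratios are given as a description.

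**Figure D3:**
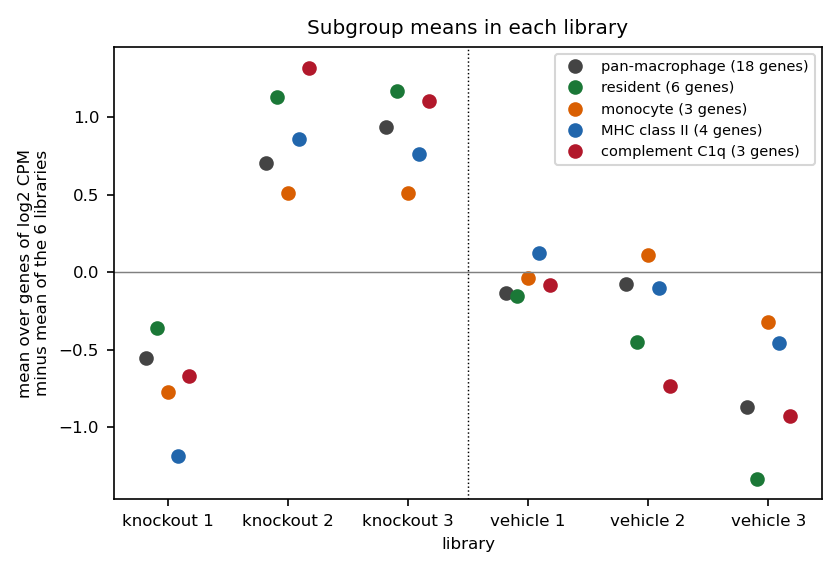
Mean over the genes of each of the 5 subgroups of log2 CPM minus the gene's mean over the 6 libraries (vertical axis), by library. In every subgroup knockout replicates 2 and 3 are highest. In knockout replicate 1 the class II genes are the lowest of the 5 subgroups, and in vehicle replicate 3 the resident genes are.

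The 3 monocyte genes had a median difference in log2 CPM of 0.27, which was below 0 without knockout replicate 2 (-0.03), knockout replicate 3 (-0.22), vehicle replicate 2 (-0.00143) or vehicle replicate 3 (-0.09). Ccr2, the chemokine receptor that brings monocytes out of the blood, was at 0.407, 0.492 and 0.908 CPM in the knockout libraries and 0.712, 0.521 and 0.574 CPM in the vehicle libraries. All 3 vehicle libraries lay inside the knockout range, and the fitted log2 fold change of 0.01 had an SE of 0.49 and a 95% interval from -1.08 to 1.10. Cx3cr1, the fractalkine receptor, had 4, 13 and 5 reads against 7, 3 and 6, too few for the test. Relative to the pan-macrophage genes the monocyte genes were at -0.22, -0.19 and -0.43 log2 units with knockout and 0.10, 0.19 and 0.55 with vehicle, without overlap, while their summed CPM over that of the pan-macrophage genes overlapped (0.0268, 0.0364 and 0.0475 with knockout, 0.0363, 0.0865 and 0.0493 with vehicle).

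Cd14, a co-receptor for bacterial lipopolysaccharide, was at 0.698, 3.65 and 4.70 CPM in the knockout libraries and 1.27, 4.71 and 1.10 CPM in the vehicle libraries. Knockout replicates 2 and 3 and vehicle replicate 2 were high, the other libraries low, and the log2 fold change was 0.35 (SE 0.75), or 1.34 without vehicle replicate 2. Vehicle replicate 2 also held 525 reads of Ccl2, which encodes the main ligand of CCR2, where the other libraries held 0 to 25. It held 186 reads of the related chemokine gene Ccl7, where the others held 3 to 14. Ccl2 was singled out after its values were seen. Neutrophil markers, 12 genes summed, were at 6.66, 44.7 and 11.8 CPM in the knockout libraries and 4.12, 37.1 and 5.53 CPM in the vehicle libraries, so the 2 highest sums were in knockout replicate 2 and vehicle replicate 2. Red cell markers were highest in the same 2 libraries, at 3185 and 3607 CPM against 531 to 1333 CPM in the others. Their part in the Cd14 and Ptprc values was not tested.

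The 4 class II genes moved closely together, and knockout replicate 1 was the lowest library for each of them. Cd74 was at 13.6, 49.9 and 47.2 CPM in the knockout libraries and 30.9, 25.2 and 17.1 CPM in the vehicle libraries. H2-Aa, the alpha chain of the I-A molecule, was at 6.31, 24.9 and 23.4 CPM against 14.9, 13.9 and 10.0 CPM. H2-Ab1, its beta chain, was at 4.27, 18.9 and 16.9 CPM against 10.9, 8.77 and 7.28 CPM. The vehicle libraries of each gene thus fell between knockout replicate 1 below and knockout replicates 2 and 3 above.

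H2-Eb1, the beta chain of the I-E molecule, repeated this order at 4.04, 19.2 and 18.3 CPM against 11.6, 10.1 and 9.08 CPM. Log2 fold changes of these genes were 0.43 to 0.60 with SEs of 0.45 to 0.49, and their edgeR adjusted p-values were 0.793 to 0.868. The median over the 4 genes of the difference in log2 CPM was 0.30, but it was -0.06 without knockout replicate 2 and -0.00188 without knockout replicate 3. H2-Aa to H2-Ab1, the 2 chains of I-A, kept an FPKM ratio of 1.15 to 1.38 over the 6 libraries. H2-Ea-ps, listed as the alpha-chain pseudogene of I-E, had 0 reads in every library.

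Relative to the pan-macrophage genes, the class II genes were at -0.64, 0.16 and -0.18 log2 units in the knockout libraries and 0.26, -0.02 and 0.41 in the vehicle libraries, and the groups overlapped in this measure. The summed CPM of the 4 class II genes was 0.620, 0.910 and 0.874 times that of the pan-macrophage genes with knockout and 1.13, 0.942 and 1.17 times with vehicle, and this ratio of sums did not overlap between the groups. In FPKM, H2-Aa was 0.192, 0.280 and 0.309 times Lyz2 in the knockout libraries and 0.360, 0.362 and 0.367 times in the vehicle libraries. Dendritic cells, which carry class II molecules as well, had markers summing to 10.6, 18.3 and 22.4 CPM with knockout and 14.0, 14.9 and 14.7 CPM with vehicle, and knockout replicate 1 was lowest here too. Of these 10 markers 4 had a higher and 6 a lower mean CPM in the knockout group, and 4 passed the filter. The 7 B and plasma cell markers summed to 186, 46.5 and 153 CPM with knockout and 114, 114 and 159 CPM with vehicle, nearly all of it Ighm, while the B cell marker Ms4a1 had 0 reads in every library. The part of either cell type in the class II values was not tested.

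Class II promoters are known for an X and a Y box shared by the whole family and read by the RFX, CREB and NF-Y factors under the coactivator CIITA. The windows of H2-Aa and H2-Eb1 are shown, 5′ to 3′ on the gene's strand. They run from 250 bases before to 50 bases after the gene start in RefSeq (GRCm38.p6). H2-Ab1, which moved together with these genes, had no entry among the promoter windows. H2-Aa is at chr17:34287774-34288073 (minus strand) and H2-Eb1 at chr17:34305617-34305916 (plus strand). Capitals mark matches, on either strand, to the Y box CCAAT and the X2 box TGACG and to the X1 box.
H2-Aa: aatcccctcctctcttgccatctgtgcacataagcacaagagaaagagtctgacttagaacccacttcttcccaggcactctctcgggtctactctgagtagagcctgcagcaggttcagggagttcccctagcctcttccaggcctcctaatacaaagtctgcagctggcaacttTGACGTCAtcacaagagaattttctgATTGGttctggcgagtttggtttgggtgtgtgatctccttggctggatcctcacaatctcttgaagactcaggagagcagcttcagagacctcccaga
H2-Eb1: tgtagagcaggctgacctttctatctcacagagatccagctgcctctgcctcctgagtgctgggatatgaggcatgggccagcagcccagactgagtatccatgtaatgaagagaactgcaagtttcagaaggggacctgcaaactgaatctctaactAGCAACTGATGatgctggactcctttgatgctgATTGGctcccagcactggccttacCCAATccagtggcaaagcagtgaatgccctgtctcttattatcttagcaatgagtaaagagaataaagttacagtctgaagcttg
In H2-Aa the Y box letters start at position -48 from the gene start, and 2 overlapping X2 matches, 1 on each strand, start at -74 and -71. In H2-Eb1 an X1 match starts at -92 and Y box matches start at -59 and -35. Of 32817 RefSeq promoter windows of this length, 37.4% held the Y box letters, 3.09% the X1 letters and 20.8% the X2 letters, so the 5-letter matches are common by themselves. Of the 34 genes, 25 had an entry in the promoter table, and in any of their windows 13 of these held the Y box letters, 3 the X1 letters and 5 the X2 letters. Counted in the same way by gene, the shares over 27025 genes were 41.1%, 3.57% and 23%.

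The 3 C1q genes lie together on chromosome 4 (chr4:136880129-136886187 for C1qb, chr4:136889804-136893065 for C1qc and chr4:136895917-136898803 for C1qa) and encode the chains of 1 molecule. All 3 had positive estimates at an unadjusted p under 0.05, a threshold at which 4.02% of all genes tested were higher. Their median log2 fold change was 1.28. C1qa was at 4.30, 12.7 and 13.6 CPM in the knockout libraries and 5.67, 3.86 and 3.55 CPM in the vehicle libraries. C1qb was at 4.48, 21.5 and 16.5 CPM against 7.62, 5.40 and 4.54 CPM. C1qc was at 3.49, 16.0 and 12.4 CPM against 5.42, 2.82 and 2.43 CPM. In each, knockout replicates 2 and 3 were above all vehicle libraries and knockout replicate 1 was within or just below the vehicle range.

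The log2 fold changes were 1.23 for C1qa (SE 0.41, edgeR adjusted p = 0.628), 1.28 for C1qb (SE 0.51, edgeR adjusted p = 0.651) and 1.59 for C1qc (SE 0.54, edgeR adjusted p = 0.633). C1qb was 0.995 to 1.62 times C1qa in FPKM over the 6 libraries, and both ends of that range were in the knockout group. Relative to the pan-macrophage genes the C1q genes were at -0.12, 0.62 and 0.17 log2 units with knockout and 0.06, -0.66 and -0.06 with vehicle, with overlap. Unlike for the class II genes, knockout replicate 1 was not apart from the other libraries in this ratio.

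PU.1, the product of Spi1, is known to bind purine-rich GAGGAA elements in many macrophage promoters. The windows of C1qb (chr4:136886151-136886450, minus strand) and C1qc (chr4:136892865-136893164, minus strand) are shown, again from RefSeq (GRCm38.p6). In all 3 C1q genes knockout replicates 2 and 3 were the highest libraries, but C1qa had no entry among the promoter windows. Capitals mark GAGGAA or its complement TTCCTC.
C1qb: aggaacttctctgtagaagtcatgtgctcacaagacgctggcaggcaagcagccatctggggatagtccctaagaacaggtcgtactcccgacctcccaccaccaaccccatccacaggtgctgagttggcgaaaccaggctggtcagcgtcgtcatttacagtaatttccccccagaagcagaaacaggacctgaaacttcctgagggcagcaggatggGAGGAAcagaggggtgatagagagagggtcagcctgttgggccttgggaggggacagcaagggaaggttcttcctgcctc
C1qc: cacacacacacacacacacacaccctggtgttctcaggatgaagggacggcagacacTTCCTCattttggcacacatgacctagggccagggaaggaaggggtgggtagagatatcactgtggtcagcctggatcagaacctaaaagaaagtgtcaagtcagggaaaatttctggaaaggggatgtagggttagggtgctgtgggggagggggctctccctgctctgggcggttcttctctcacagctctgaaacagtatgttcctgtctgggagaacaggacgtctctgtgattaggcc
The match in C1qb starts at -30 from the gene start and reads in the direction of the gene, and the match in C1qc starts at -193 on the opposite strand. The letters occur in 28.3% of all 32817 windows. Counted by gene, where a gene may have several windows, they occur in 31.3% of 27025 genes and in 15 of the 25 of these genes with an entry. The RefSeq start of C1qc lies inside the gene as the deposited table bounds it.

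**Figure D4:**
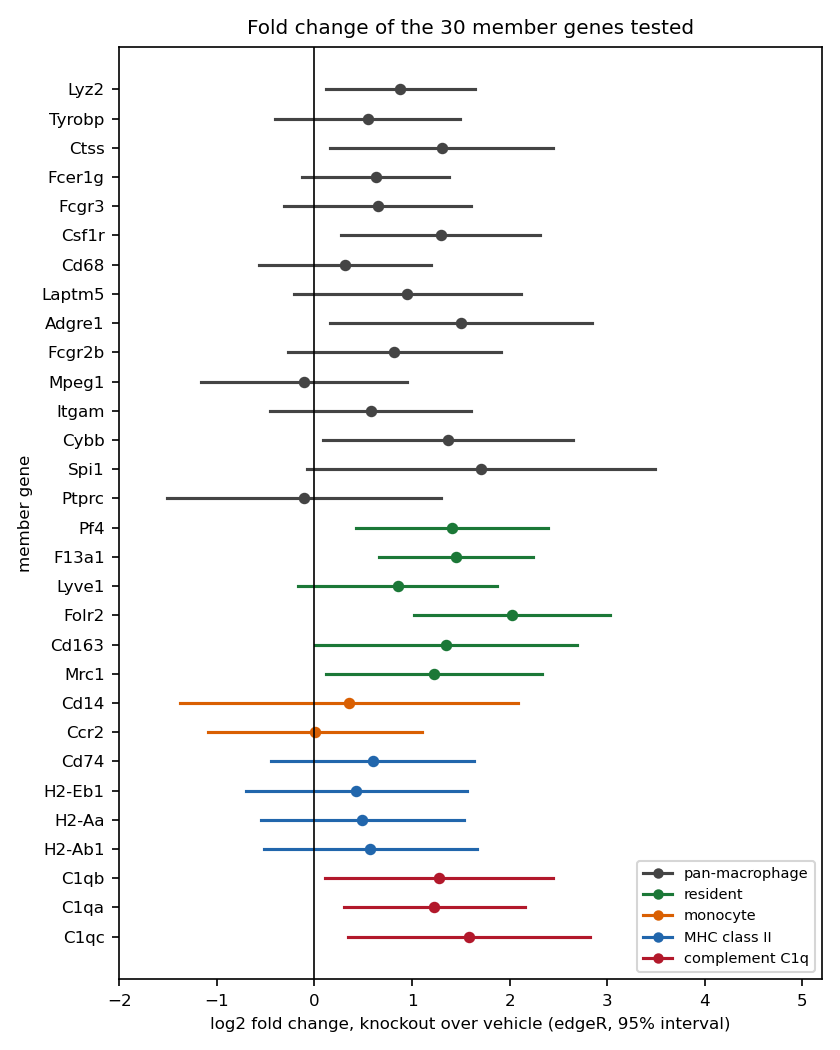
Log2 fold change, knockout over vehicle, of the 30 genes tested with edgeR's 95% interval, coloured by subgroup. The point for Folr2 is farthest right at 2.02, the class II points lie between 0.43 and 0.60, and Ptprc and Mpeg1 lie at -0.11.

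Genes that load or regulate class II molecules had estimates of both signs. Of 17 listed genes 10 were tested, 7 with a positive and 3 with a negative estimate, and 0 passed the adjusted threshold. Ifi30, a thiol reductase that opens antigens for class II loading, was at 7.12, 15.9 and 21.7 CPM in the knockout libraries and 22.8, 27.6 and 87.6 CPM in the vehicle libraries. It was lower in every knockout library (log2 fold change -1.63, SE 0.58, edgeR adjusted p = 0.641). Rfx5, a subunit of the X box factor, had a log2 fold change of -0.76 (SE 0.32) and the lysosomal protease gene Lgmn one of 0.62 (SE 0.27). Ciita, named after its values were seen, had 2, 6 and 22 reads against 2, 2 and 4 and was not tested.

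Of 32 further complement genes 23 were tested, 17 with a positive and 6 with a negative estimate and a median log2 fold change of 0.28. Masp1, a protease of the lectin pathway, was at 2.85, 4.80 and 5.18 CPM in the knockout libraries and 1.61, 0.904 and 0.417 CPM in the vehicle libraries, with no overlap. Its log2 fold change was 2.14 (SE 0.47, edgeR adjusted p = 0.425), and DESeq2 called it at adjusted p = 0.00173. Cfd, the adipocyte-derived factor D of the alternative pathway, had a log2 fold change of 1.78 (SE 0.63), and the complement regulator Cr1l one of 0.43 (SE 0.15). The central component C3, chosen after its values were seen, had a log2 fold change of 0.02.

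Among 14 genes of the CSF1 axis and macrophage transcription factors, 7 estimates were positive and 7 negative. Cebpa, a myeloid and adipocyte factor, had a log2 fold change of 1.14 (SE 0.28, edgeR adjusted p = 0.526) with no overlap between the groups. Csf2rb2, a beta chain of the interleukin-3 receptor, was at -0.93 (SE 0.35) and the myeloid factor Irf8 at -0.54 (SE 0.25). Of 17 monocyte recruitment genes 11 were tested, 5 positive and 6 negative. The chemokine gene Ccl6 had a log2 fold change of 1.13 (SE 0.43), Cx3cl1, which encodes the ligand of CX3CR1, had -0.71 (SE 0.30), and Ccl7 had -3.21 (SE 1.39), its vehicle level being that of replicate 2.

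Lists of effector genes related to the receptors and oxidase above had more positive than negative estimates, where 52.9% of all genes tested had a positive one. Of 10 tested genes of Fc receptors and their signalling, 9 had a positive estimate, with Fcrls at 0.88 (SE 0.31), Clec4a2 at 1.63 (SE 0.73) and Sirpa at 0.45 (SE 0.30). Of 6 tested oxidase genes 5 were positive, among them Ncf1, the p47 subunit that switches the oxidase on, at 1.48 (SE 0.40, edgeR adjusted p = 0.553) with no overlap. Nox4, a separate oxidase rather than a part of the phagocyte oxidase, was at 0.88 (SE 0.36). The proton channel Hvcn1 was at 0.86 (SE 0.54). Of 19 tested phagocytosis and lysosome genes 12 were positive, with Cd36 at 0.94 (SE 0.34), Apoe at 0.59 (SE 0.26) and Gas6 at 0.38 (SE 0.16). Of 12 tested repair and lipid genes 8 were positive, with Fabp4 at 0.73 (SE 0.33), Retnla at 0.59 (SE 0.28) and the iron exporter Slc40a1 at -0.61 (SE 0.30). The median log2 fold change was 0.28 over the phagocytosis and lysosome genes and 0.24 over the repair and lipid genes. Over all genes tested it was 0.02. None of the genes in these lists passed the edgeR adjusted threshold. Fat cells also express Fabp4 and Cd36, as well as Cebpa and Cfd above. A positive estimate was found for 10 of 10 fat cell markers, with a median log2 fold change of 1.10. Fabp4 and Cfd are themselves among these markers, so their own values enter the count, the median and the sum. Those markers summed to 550, 838 and 308 CPM in the knockout libraries and 369, 289 and 246 CPM in the vehicle libraries, and their part in these values was not tested.

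Interferon-gamma is the textbook inducer of class II genes. Of 16 genes of its response all were tested, 13 with a positive estimate, 9 of them at an unadjusted p under 0.05. The shares over all genes tested were 52.9% and 4.02%, and the median log2 fold change of the 16 was 0.91. Iigp1, an interferon-induced GTPase, was at 18.1, 16.7 and 24.0 CPM in the knockout libraries and 5.88, 5.59 and 5.63 CPM in the vehicle libraries (log2 fold change 1.78, SE 0.20, edgeR adjusted p = 0.058). Knockout replicate 1 stood with the other knockout libraries for Iigp1, unlike in the class II genes. The list as a whole summed to 226, 364 and 352 CPM with knockout and 232, 214 and 239 CPM with vehicle. In this sum knockout replicate 1 was inside the vehicle range. Knockout replicates 2 and 3 were the 2 highest libraries for 12 of the 16 genes, against 13.4% of all genes tested. Gbp3 was at 1.95 (SE 0.39, edgeR adjusted p = 0.343), and the chemokine gene Cxcl10 was at -2.93 (SE 0.53, edgeR adjusted p = 0.315), lower in every knockout library.

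A further list of 10 genes held Lyz1, relatives of the class II, Fc receptor and Ms4a genes, and Cd209f. Of these 6 were tested, and all 6 had a positive estimate, where 52.9% of all genes tested had one. Ms4a6c, of the same family as Ms4a7, was at 1.22, 4.57 and 3.45 CPM in the knockout libraries and 0.867, 0.548 and 0.443 CPM in the vehicle libraries, without overlap. Its log2 fold change was 2.32 (SE 0.51, edgeR adjusted p = 0.434), and those of Ms4a6d and Ms4a4a were 1.62 (SE 0.65) and 1.07 (SE 0.47). Reads of genes with closely similar sequences, such as those of Fc receptors, may have been divided among them by the counting.

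Markers of other cells of muscle show which populations shared the order of the libraries. Fibro-adipogenic markers, which mark connective tissue cells, had a positive estimate for 10 of 10 genes and summed to 1278, 3049 and 2219 CPM in the knockout libraries and 1748, 1784 and 1313 CPM in the vehicle libraries. Mast cell markers summed to 3.95, 18.4 and 19.1 CPM against 9.82, 7.84 and 3.21 CPM. In both lists knockout replicates 2 and 3 were highest, as in the macrophage genes. The summed dendritic cell markers given above were highest in these libraries as well, though 6 of those 10 markers had a lower mean CPM in the knockout group. The 10 slow-fibre markers all had log2 fold changes of at least 1, with a median of 1.90. They summed to 6201, 32826 and 10352 CPM with knockout and 10164, 1483 and 1233 CPM with vehicle, so knockout replicate 1 was inside the vehicle range here too. Muscle fibre markers ran the other way in part, at 227204, 108183 and 162044 CPM with knockout and 196556, 211628 and 207251 CPM with vehicle. Endothelial markers were at 296 to 395 CPM in all libraries. Of 12 T and natural killer cell markers 0 reached the filter, their sum was 0.183 to 1.05 CPM, and Ncr1 had 0 reads throughout. The part of connective tissue and of fibre type in the macrophage values was not tested.

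**Figure D5:**
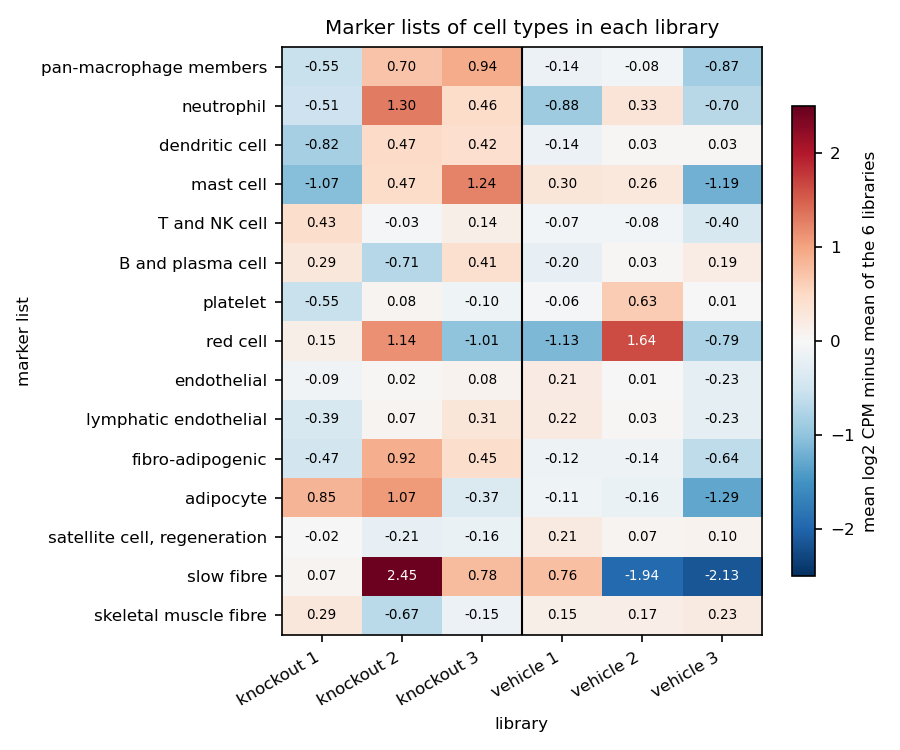
Mean over the markers of each cell type of log2 CPM minus the gene's mean over the 6 libraries (colour and printed value), with the pan-macrophage genes in the top row. Fibro-adipogenic markers (-0.47, 0.92 and 0.45 in the knockout libraries) and mast cell markers (-1.07, 0.47 and 1.24) are low in knockout replicate 1 and high in the other knockout libraries, as the pan-macrophage genes are (-0.55, 0.70 and 0.94). The same holds in the knockout libraries for dendritic cell markers (-0.82, 0.47 and 0.42) and neutrophil markers (-0.51, 1.30 and 0.46).

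The 34 genes differed in how closely they followed their common profile. Measured as the root mean square distance of centred log2 CPM over the 6 libraries, Lyz2 and Lyve1 were nearest to the mean profile of the 34 at 0.13 each. Ms4a7 at 0.96, Trem2 at 0.86, Ptprc at 0.78 and Cd14 at 0.71 were farthest, the first 2 of these with few reads. Of 11254 other genes ranked by the same distance, the nearest was Ccl9, a chemokine gene, at 0.07. Col1a2 at 0.08 and Irf7 at 0.13 came next, then Col6a1, Herc6, Col6a2, Kcp, Fbn1, C1qtnf6 and Tmem164 at 0.14 to 0.17. Col1a2, Col6a1, Col6a2 and Fbn1 encode proteins of the extracellular matrix, and Irf7 and Herc6 are interferon-induced genes. The likeness rests on 6 libraries of 1 tissue.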

How the data were processed

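RNA was extracted from flash-frozen gastrocnemius of 6 mice, 3 knockout and 3 vehicle, and libraries were made with a stranded mRNA kit, per the labels' protocols. Reads were demultiplexed with bcl2fastq, aligned with STAR 2.6.1c and counted with featureCounts of Subread 1.5.1 on mm10, per the submitters' processing notes; neither an annotation release nor a strand setting is given in the sources used here. The authors deposited 1 table with a raw count and an FPKM value per gene and library. The deposited FPKM equals the count divided by gene length plus 1 and by the library total for 100% of values, within 0.1%. Libraries held 30486874 to 39909535 counts, 19501 of the 43346 genes were at 0 in all, and counts set the precision of low genes.

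Counts were tested with edgeR 4.0.16 (robust quasi-likelihood test, trimmed mean of M-values scaling, filterByExpr with a minimum count of 10 and a minimum total of 15, Benjamini-Hochberg over the 15583 genes kept, threshold 0.05), in R 4.3.3. CPM used the scaled library sizes and log2 CPM a prior count of 2. Alternatives were DESeq2 1.42.0, DESeq2's size factors in edgeR, no filter, a filter at 1 CPM in 3 libraries, limma 3.58.1 (voom, and log2 of FPKM plus 0.1 or 1) and leaving out each library. The test was checked on simulated counts. Each library is a separate mouse by its label, and no 2 libraries agreed within sampling noise.

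The genes, lists and the rule for named genes were chosen with earlier results of these data known, so lists are described by counts and medians without a test. The rule gave all monocyte, class II and C1q genes, the 5 pan-macrophage and 3 resident genes of smallest p, genes of opposite sign to their subgroup's median or below the filter, in each further list up to 3 genes of smallest p with a mean of at least 0.5 CPM, and the 10 genes nearest in profile (mean of at least 1 CPM). Of 323 listed genes 320 were in the table. Exon overlaps come from GENCODE M21.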

Additional observations from a re-analysis of the deposited data

How the results depend on the processing

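No paired analysis was possible because the labels give the libraries no shared replicate numbers, and the numbers used here are only names. Genes past an adjusted p of 0.05 numbered 0 in edgeR, 4 with DESeq2's size factors, 109 in DESeq2, 29 with no filter on low counts, and 0 to 24 when single libraries were left out. Of the 34 genes, 0 passed in edgeR, 2 in DESeq2 (Folr2 at a log2 fold change of 2.01 and F13a1 at 1.43) and 1 with no filter (Folr2, adjusted p = 0.0371). At an unadjusted p under 0.05 there were 13, against 6 with limma-voom, 6 with FPKM plus 0.1, 6 with FPKM plus 1, and 3 to 24 when single libraries were left out. The median difference in log2 CPM ran from -0.22 to 0.51 for the monocyte genes and from -0.0634 to 0.96 for the class II genes over those fits, and from 0.45 to 1.23 for all 34. Among single genes, Ptprc (-0.11) was 0.28 with voom, 0.0868 with FPKM plus 0.1, 0.00266 with FPKM plus 1 and -0.53 to 1.02 when libraries were left out. Mpeg1 (-0.11) was 0.00148 with FPKM plus 1 and -0.40 to 0.25 when libraries were left out. Ccr2 (0.01) was -0.0134 with DESeq2's size factors, -0.0132 in DESeq2, -0.0505 with voom, -0.00379 with no filter and -0.42 to 0.22 when libraries were left out. Cd14 (0.35) was -0.12 to 1.34 when libraries were left out. The cause of these shifts was not tested. The other 427 values of single genes kept their direction and their side of the threshold, and no gene changed rank by level. With 3 mice in each group and few reads for Aif1, Trem2, Ms4a7 and Cx3cr1, differences in these 4 genes were not detectable.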

Other observations

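Fat cell markers had another order of libraries than the macrophage genes: their sum was high in knockout replicate 1 and within the vehicle range in knockout replicate 3. The lipase gene Lipe had a log2 fold change of 0.80 (SE 0.27) and the resistin gene Retn one of 1.40 (SE 0.51), with edgeR adjusted p = 0.628 and 0.643. Myog, a transcription factor of differentiating muscle cells, was at 14.6, 7.93 and 15.6 CPM in the knockout libraries and 25.3, 25.0 and 38.8 CPM in the vehicle libraries. Its log2 fold change was -1.22 (SE 0.28, edgeR adjusted p = 0.478), with no overlap between the groups. Cldn5, a tight junction gene of endothelial cells, was lower in every knockout library, at a log2 fold change of -0.91 (SE 0.20, edgeR adjusted p = 0.408).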
